A study of Mus musculus with 4 samples.

Results

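The genes described here are 10 genes of the B cell lineage, taken by name from the gene count table of a mouse tibia single-cell library: Vpreb1, Vpreb2, Igll1, Vpreb3, Cd79a, Cd79b, Ighm, Igkc, Rag1 and Rag2. All 10 were among the 31053 genes of the table, and all had UMIs (unique molecular identifiers, each standing for 1 captured transcript). The library came from 1 male mouse at postnatal day 6, from the pooled cells of 2 tibiae, labelled proximal and distal, from which the study's methods left out the secondary ossification centre at either end, and the authors counted its 4 sequencing entries as a single table. The mouse carried Col10a1Cre, Rosa26-Tdtomato, Irx3 +/Δ and Irx5 +/-, and the labels call it an Irx3/5 heterozygous control. The Cre is driven by Col10a1, a gene of hypertrophic chondrocytes, and no wild-type library was analysed here. A single library holds no replicates: cells are not replicates, and values are given without tests or p-values.

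B cells are made in the bone marrow by stepwise rearrangement of their immunoglobulin genes. The recombinase made of RAG1 and RAG2 cuts the DNA beside variable, diversity and joining segments, first at the heavy chain locus in pro-B cells. A heavy chain (its constant region is read from Ighm) then pairs with the surrogate light chain, made of VpreB (Vpreb1, Vpreb2) and lambda 5 (Igll1), and with the signalling chains CD79A and CD79B, to form the pre-B cell receptor. Large pre-B cells divide after this step, small pre-B cells stop dividing and rearrange a light chain locus, most often kappa (Igkc), and the light chain then takes the place of the surrogate chain in immature B cells. VpreB3 is a related protein of the B lineage that is kept within the cell.

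On GRCm38 (GENCODE M21), Vpreb1 (chr16:16868403-16870843, minus strand) and Igll1 (chr16:16860671-16863985, minus strand) lie 4417 bases apart, and Vpreb2 lies at chr16:17980428-17981273 on the plus strand. Rag1 (chr2:101638282-101649501, minus strand) and Rag2 (chr2:101624718-101632529, plus strand) face each other with their 3′ ends, 5752 bases apart. Vpreb3 lies at chr10:75943057-75949657 (plus strand), Cd79a at chr7:24897381-24902197 (plus strand) and Cd79b at chr11:106311341-106314762 (minus strand). The constant regions lie at chr12:113418558-113422730 (Ighm, minus strand) and chr6:70726435-70726966 (Igkc, plus strand). The transcripts of Vpreb1 and Vpreb2 share 739 of 759 aligned bases (97.4%), with 288 of the last 300 bases identical, so reads of this 3′ library may be split between them and their separate values are uncertain.

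Promoter sequences of 7 of the 10 genes were found in RefSeq (GRCm38.p6), and 4 are shown because these genes were placed differently across the stages below: Igll1 in the earlier cells, Rag1 in separate early and late classes, and Vpreb3 and Cd79a in every B lineage class. They read toward the gene and end where its first annotated exon begins, or at the RefSeq start. The Vpreb3 sequence ends at the RefSeq start and lies within the GENCODE span of the gene, past its GENCODE start at chr10:75943057. Capitals mark the E-box motifs CAGCTG and CACCTG, CCCNNGGG (a core of EBF sites) and the octamer ATGCAAAT, searched on both strands over 250 bases, where N is any base. None of the capitalised motifs overlap.
Igll1, chr16:16863986-16864235, minus strand: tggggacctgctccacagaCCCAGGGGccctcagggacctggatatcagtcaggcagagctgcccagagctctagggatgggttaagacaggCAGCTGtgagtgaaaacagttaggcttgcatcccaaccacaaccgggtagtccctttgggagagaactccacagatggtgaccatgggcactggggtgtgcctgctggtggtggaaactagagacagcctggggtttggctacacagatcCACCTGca
Rag1, chr2:101649533-101649782, minus strand: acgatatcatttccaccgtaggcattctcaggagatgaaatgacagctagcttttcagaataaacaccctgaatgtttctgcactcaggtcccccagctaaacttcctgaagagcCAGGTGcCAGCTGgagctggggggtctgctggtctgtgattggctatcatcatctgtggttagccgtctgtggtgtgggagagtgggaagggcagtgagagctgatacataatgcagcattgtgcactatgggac
Vpreb3, chr10:75948050-75948299, plus strand: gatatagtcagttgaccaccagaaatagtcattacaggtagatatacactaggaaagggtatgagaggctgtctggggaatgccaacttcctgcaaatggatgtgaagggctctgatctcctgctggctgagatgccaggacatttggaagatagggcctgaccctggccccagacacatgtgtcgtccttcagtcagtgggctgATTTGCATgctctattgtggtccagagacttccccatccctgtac
Cd79a, chr7:24897247-24897380, plus strand: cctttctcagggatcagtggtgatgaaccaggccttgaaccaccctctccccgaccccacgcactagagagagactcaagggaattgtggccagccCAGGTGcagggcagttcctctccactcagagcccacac
The octamer was in the Vpreb3 promoter and in 1.6% of all 32851 promoters of this length, CAGCTG was in 13%, CACCTG in 17.2% and CCCNNGGG in 11.8%. The core GGGAA of Ikaros sites, not capitalised, was in 56.2% of all promoters and in 6 of the 7 found here, all but Igll1. In the Vpreb2 promoter it overlaps a CAGCTG by 1 base. Such matches describe the letters and not binding.

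The table holds 14181 barcodes with a median of 8235 UMIs. With at least 1600 genes per cell, the study's own minimum, 8255 cells remained (median 13957 UMIs), and 769 of them fell into clusters called B lineage-like from their markers. Neither the 10 genes nor any immunoglobulin gene was used to cluster or to name cells. In the 731 of these cells that were not left out as mixed, all 20 B lineage markers reached 10 CPM, against 3 of 7 plasma cell markers. None of the 20 was at 0. The cells were named from this B lineage list, so its levels in them are partly built in. Levels are counts scaled to 1000000 (CPM), the UMIs of a gene in a class divided by all UMIs of that class, so a class value mixes the share of cells with a gene and its level per cell. Intervals are exact 95% intervals, Poisson for CPM and Clopper-Pearson for shares, and cover counting error only. Class names were rebuilt here, with thresholds chosen once the clusters were known, and may differ from those of the study.

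The B lineage-like cells split into 113 resting pro-B-like cells (median 4446 UMIs, 43.6 CPM of the proliferation gene Top2a), 233 cycling pro-B-like cells (median 12522 UMIs, 782 to 1143 CPM of Top2a by cluster), 60 large pre-B-like cells led by Nrgn (median 21144 UMIs, 587 CPM of Top2a), 286 pre-B-like cells rich in Bach2 (median 6586.5 UMIs) and 39 immature or mature B-like cells (median 6703 UMIs, 365 CPM of Top2a). The large pre-B name rested on 1 marker among the leading genes, Nrgn. Top2a was lower in these cells than in the cycling pro-B-like and Bach2-rich cells. The immature or mature B-like cells passed the 200 CPM limit of Top2a for cycling. The Bach2-rich cells took the marker list of small pre-B cells but cycled, with 1275 CPM of Top2a, and are not called small here. Markers of other tissue cells were also counted in the B lineage-like classes: 13 of 13 chondrocyte markers (1319 CPM summed) and 7 of 15 erythroid markers (4636 CPM summed) reached 10 CPM, none at 0, and their part in the results was not tested. A further 38 B lineage-like cells, 24 of them marked as doublets, held chondrocyte markers and were left out of the classes. Resting lymphocytes hold few transcripts, so a minimum of 500 genes per cell was run beside the study's minimum. It gave 10705 cells with 1218 B lineage-like cells, among them 273 small pre-B-like cells (median 2328 UMIs, 32.1 CPM of Top2a) and 185 immature or mature B-like cells (median 2689 UMIs, 181 CPM of Top2a, not cycling). Of the small pre-B-like cells, 252 had fewer than 1600 genes, and in these runs the class was named only at the lower minimum. Its median UMI count was under the 3634 UMIs that make up the median of all cells divided by 3, and it kept its name because its marker Cd2 was among its leading genes. A minimum of 1000 genes also named a small pre-B cluster that was not cycling, of 272 cells. With at least 1600 genes and B lineage clustering at resolution 1.2, an unnamed cluster of 46 cells was not cycling. That cluster had Rag1 at 571 CPM, Igkc at 3085 CPM and Igll1 at 119 CPM. Like clusters of 48 and 50 cells appeared with the 10 genes in the clustering and at first resolutions 0.6 and 1.5. The Bach2-rich class may thus mix cycling and resting cells.

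In CPM, Vpreb1, Vpreb2 and Igll1, the genes of the surrogate light chain, were highest in resting pro-B-like cells and lower in each class that follows in the order given. Median depth rose over resting pro-B-like, cycling pro-B-like and Nrgn-rich cells (4446, 12522 and 21144 UMIs). Per cell, UMIs of Vpreb1 and Igll1 were higher in each next of these classes, and those of Vpreb2 did not fall steadily. Over these classes the lower CPM is a lower share of all UMIs, and the part of depth was not tested. Vpreb1 was at 2791 CPM (2659 to 2929) in resting pro-B-like cells, 1083 CPM (1048 to 1119) in cycling pro-B-like cells and 738 CPM (692 to 785) in Nrgn-rich large pre-B-like cells. It was at 272 CPM (250 to 295) in Bach2-rich cells and had 0 UMIs in the 39 immature or mature B-like cells, where 3 UMIs would be 8.91 CPM. No neighbours in this order had overlapping intervals.
Igll1 stood at 1573 CPM (1474 to 1677), 784 CPM (754 to 815), 645 CPM (602 to 689), 226 CPM (207 to 247) and 0 UMIs in the same classes. Vpreb2 stood at 446 CPM (394 to 503), 179 CPM (165 to 194), 102 CPM (86.1 to 121), 13.6 CPM (9.08 to 19.5) and 0 UMIs. In small pre-B-like cells at the lower minimum, Vpreb1 was at 65.7 CPM (47.5 to 88.4), Igll1 at 27.5 CPM (16.3 to 43.4) and Vpreb2 had 1 UMI.

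The ratio of Vpreb1 to Vpreb2 UMIs was not the same in all classes. It was 6.26 (5.49 to 7.15) in resting pro-B-like, 6.05 (5.54 to 6.62) in cycling pro-B-like and 7.20 (6.02 to 8.66) in Nrgn-rich cells, with overlapping intervals. In Bach2-rich cells it was 20.03 (13.8 to 30.2), on 581 and 29 UMIs, above the other 3. Outside the B lineage, in cells of clusters with less than 50 CPM of the leukocyte gene Ptprc, it was 5.92 (4.799 to 7.37). These are called cells without Ptprc, although some of their clusters hold a low level of it. Of the 5077 such cells at the higher minimum, 254 were marked as doublets. At the lower minimum they include a chondrocyte-like cluster of 85 cells with 91.3 CPM of Ptprc, 71 of them marked as doublets.
The ratio of Vpreb1 to Igll1 moved less, from 1.77 (1.64 to 1.92) in resting pro-B-like cells to 1.38 (1.31 to 1.45) in cycling pro-B-like and 1.14 (1.04 to 1.25) in Nrgn-rich cells. In Bach2-rich cells it was 1.2004 (1.06 to 1.36).

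**Figure D1:**
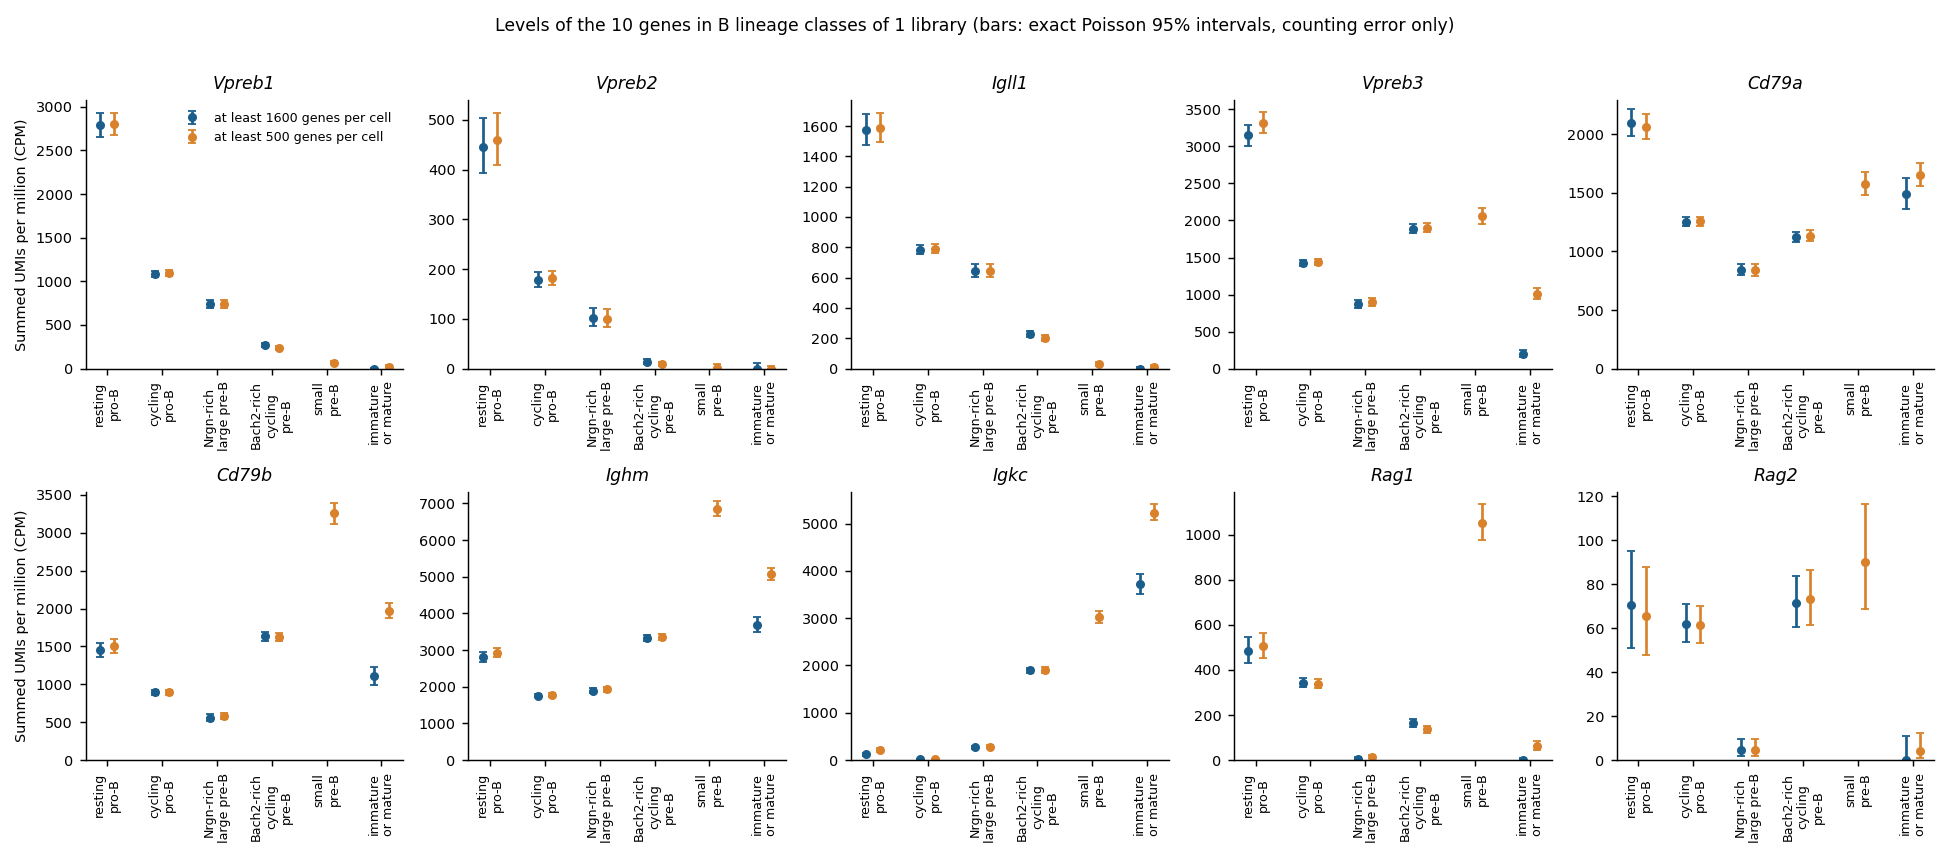
CPM (linear axes from 0) of each of the 10 genes in 6 B lineage classes, with exact Poisson 95% intervals, for cells with at least 1600 genes (blue) and at least 500 genes (orange). Vpreb1, Vpreb2 and Igll1 go down from left to right, Igkc goes up from cycling pro-B-like cells on, and Rag1 and Rag2 are lowest in Nrgn-rich large pre-B-like and in immature or mature B-like cells, where Rag1 lies at 13.3 and 63.1 CPM at the lower minimum. In these runs the small pre-B-like class was named only at the lower minimum.

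In the main run and at the lower minimum, Rag1 and Rag2 were far lower in the Nrgn-rich large pre-B-like cells than in the classes before and after them. Rag1 was at 486 CPM (432 to 546) in resting pro-B-like cells and 343 CPM (324 to 364) in cycling pro-B-like cells. In Nrgn-rich cells it was at 5.94 CPM (2.57 to 11.7), from 8 UMIs, against 3.33 CPM (2.97 to 3.72) in cells without Ptprc, with overlapping intervals. At the lower minimum it was at 13.3 CPM (7.90 to 21.1), from 18 UMIs, above the 3.20 CPM (2.86 to 3.56) of cells without Ptprc. This level moved with the setting. With at least 1000 genes, the Nrgn-led cluster (84 cells) had 73.9 CPM, against 51.8 CPM in an Igkc-rich cycling pre-B cluster (83 cells). At most 20% mitochondrial UMIs gave 76.0 and 57.5 CPM for the like clusters. Clusters named small pre-B had at least 171 CPM in both runs. With at least 1000 genes, the small pre-B cluster that was not cycling (272 cells) had Rag1 at 988 CPM, Igkc at 3120 CPM and Igll1 at 48.9 CPM. At most 5% mitochondrial UMIs or B lineage resolution 0.4 gave no Nrgn-led cluster. In the other runs at the higher minimum, Nrgn-led clusters had 5.13 to 10.6 CPM.
In Bach2-rich cells Rag1 was at 166 CPM (149 to 184), and the immature or mature B-like cells had 0 UMIs. At B lineage resolution 1.2, the Igkc-rich cycling pre-B or unnamed clusters (109, 89 and 44 cells) had Rag1 at 61.9, 197 and 195 CPM. The resting unnamed cluster of 46 cells had 571 CPM. The highest Rag1 level of all classes was that of small pre-B-like cells at the lower minimum, 1053 CPM (976 to 1135), against 507 CPM (455 to 564) in resting pro-B-like and 63.1 CPM (46.0 to 84.4) in immature or mature B-like cells of the same run. Rag2 followed with 70.4 CPM (50.8 to 95.2) in resting pro-B-like, 61.7 CPM (53.5 to 70.9) in cycling pro-B-like, 4.46 CPM (1.64 to 9.70) in Nrgn-rich and 71.5 CPM (60.7 to 83.8) in Bach2-rich cells. In cells without Ptprc Rag2 was at 0.645 CPM (0.492 to 0.830), below the interval of the Nrgn-rich cells. In small pre-B-like cells Rag2 was at 90.1 CPM (68.6 to 116). The Rag2 intervals of the 4 classes outside the Nrgn-rich and immature cells overlap.

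The ratio of Rag1 to Rag2 UMIs therefore differed between the classes. It was 5.56 (4.78 to 6.496) in cycling pro-B-like and 6.90 (4.98 to 9.79) in resting pro-B-like cells. It was lower in Bach2-rich cells, at 2.31 (1.91 to 2.82), all with at least 1600 genes. In small pre-B-like cells, at the lower minimum, it was 11.7 (8.96 to 15.5). That interval lies above the one of cycling pro-B-like cells and overlaps the one of resting pro-B-like cells. These are counts near the 3′ end of each transcript, and only the differences between classes can be read from them.

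Vpreb3, Cd79a, Cd79b and Ighm had UMIs in every B lineage class. Cd79a, a signalling chain of both the pre-B and the B cell receptor, was at 2100 CPM (1985 to 2220) in resting pro-B-like, 845 CPM (796 to 895) in Nrgn-rich and 1491 CPM (1364 to 1628) in immature or mature B-like cells. Its partner Cd79b was at 1449 CPM (1354 to 1549), 561 CPM (521 to 602) and 1105 CPM (996 to 1223) in these classes, and reached 3257 CPM (3120 to 3398) in small pre-B-like cells.
The ratio of Cd79a to Cd79b UMIs was 1.45 (1.33 to 1.58) in resting pro-B-like, 1.40 (1.34 to 1.47) in cycling pro-B-like and 1.51 (1.37 to 1.65) in Nrgn-rich cells. It was 0.689 (0.654 to 0.726) in Bach2-rich and 0.484 (0.448 to 0.521) in small pre-B-like cells, where Cd79b UMIs outnumbered those of Cd79a. In the 39 immature or mature B-like cells with at least 1600 genes it was 1.35 (1.18 to 1.55), but with the smaller cells of that class, 0.839 (0.776 to 0.908). That class changed its makeup with the minimum, since 140 of its 185 cells had fewer than 1600 genes.
Vpreb3 was at 3150 CPM (3009 to 3296) in resting pro-B-like and 870 CPM (821 to 922) in Nrgn-rich cells. It was at 1888 CPM (1831 to 1948) in Bach2-rich and 2058 CPM (1950 to 2171) in small pre-B-like cells. In immature or mature B-like cells it was at 202 CPM (157 to 256) with the higher minimum and 1011 CPM (938 to 1087) with the lower one.

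Ighm, the constant region of the mu heavy chain, and Igkc, that of the kappa light chain, were highest in the later classes. Ighm was at 2801 CPM (2668 to 2939) in resting pro-B-like, 1755 CPM (1710 to 1801) in cycling pro-B-like, 1888 CPM (1815 to 1963) in Nrgn-rich and 3330 CPM (3253 to 3409) in Bach2-rich cells. It was highest in small pre-B-like cells, at 6848 CPM (6649 to 7051).
Igkc was at 121 CPM (94.5 to 152) in resting pro-B-like and 25.5 CPM (20.3 to 31.6) in cycling pro-B-like cells, 270 CPM (243 to 299) in Nrgn-rich, 1896 CPM (1838 to 1956) in Bach2-rich and 3717 CPM (3513 to 3928) in immature or mature B-like cells. At the lower minimum it was at 3020 CPM (2888 to 3156) in small pre-B-like and 5233 CPM (5067 to 5404) in immature or mature B-like cells. Variable segments, which are the other end of a rearranged transcript, were rarely captured by this 3′ library: the 160 kappa segments together had 22.0 CPM (16.1 to 29.2) in Bach2-rich, 41.2 CPM (27.2 to 60.0) in small pre-B-like and 4.30 CPM (2.35 to 7.21) in cycling pro-B-like cells.

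Shares of cells were compared after thinning each cell to the same depth, 3000 UMIs at the higher and 1000 UMIs at the lower minimum of genes (2 and 11 B lineage-like cells were too shallow). At 3000 UMIs, a UMI of Igll1 was found in 113 of 113 resting pro-B-like cells (96.8% to 100%), 85.8% (80.7% to 90.05%) of cycling pro-B-like, 73.3% (60.3% to 83.9%) of Nrgn-rich and 29.9% (24.7% to 35.6%) of Bach2-rich cells. For Igkc the shares in these classes were 12.4% (6.94% to 19.9%), 3.86% (1.78% to 7.21%), 40.0% (27.6% to 53.5%) and 91.5% (87.7% to 94.5%). Before thinning, the shares were 100%, 97.9%, 98.3% and 41.3% for Igll1 and 15.04%, 6.01%, 75.0% and 97.9% for Igkc. In cells without Ptprc, which should lack both genes (median 15644 UMIs, against 8053 in B lineage-like cells), the thinned shares were 0.887% for Igll1 and 1.04% for Igkc, and all shares of the 4 classes lay above them.
UMIs of both Igll1 and Igkc were found in 19 of 60 Nrgn-rich cells and 72 of 284 Bach2-rich cells, against 14 of 113 resting pro-B-like and 5 of 233 cycling pro-B-like cells. For Rag1 the thinned shares were 68.1% (58.7% to 76.6%) of resting pro-B-like, 58.4% (51.8% to 64.8%) of cycling pro-B-like, 1.67% (0.0422% to 8.94%) of Nrgn-rich and 31.0% (25.7% to 36.7%) of Bach2-rich cells, against 0.768% of cells without Ptprc, and 78.8%, 85.0%, 6.67% and 50.3% before thinning. At 1000 UMIs, 109 of 268 small pre-B-like cells (40.7%) had UMIs of both Rag1 and Igkc, and 1 of 268 of both Igll1 and Igkc. In the same thinned run 15 of 184 immature or mature B-like cells (8.15%) had both Rag1 and Igkc.

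**Figure D2:**
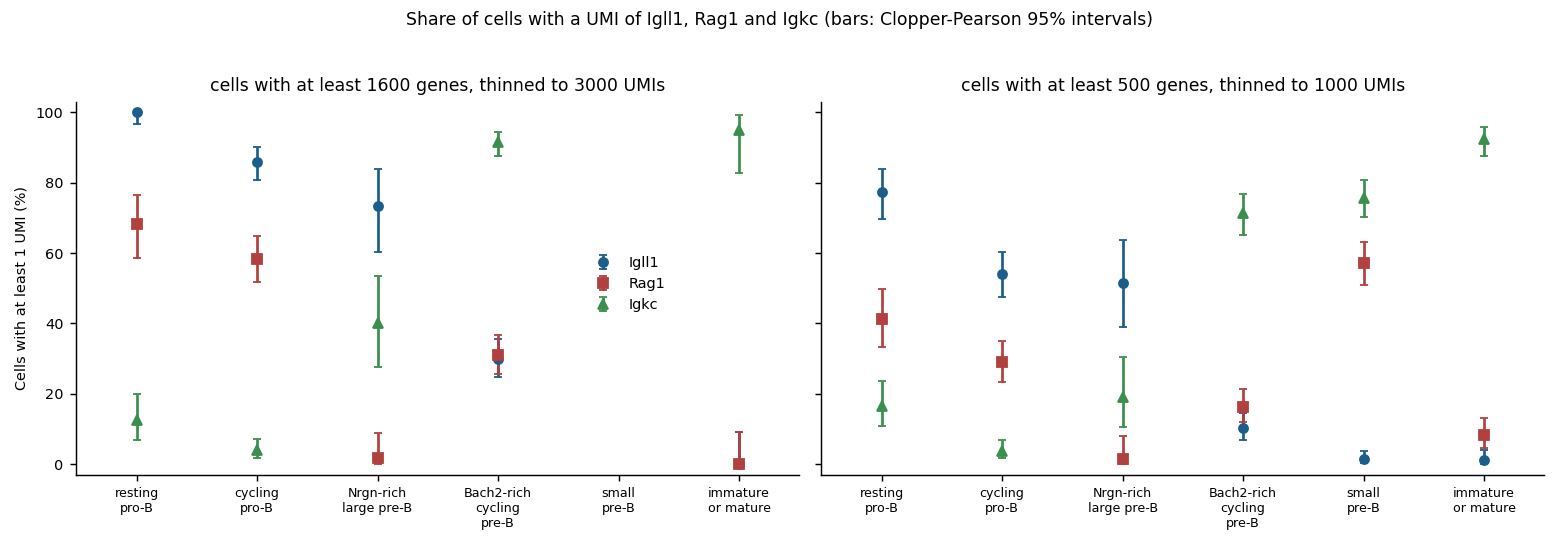
Share of cells with at least 1 UMI of Igll1 (blue circles), Rag1 (red squares) and Igkc (green triangles) by B lineage class, with Clopper-Pearson 95% intervals, after thinning to 3000 UMIs (left) or 1000 UMIs (right) per cell. Igll1 goes down from left to right and Igkc up from cycling pro-B-like cells on. Rag1 is near 0 in the Nrgn-rich cells and was found in 57.1% of small pre-B-like cells on the right. In cells without Ptprc the shares were between 0.241% and 1.04%.

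In the comparison of all earlier (406 pro-B-like and large pre-B-like cells) with all later (325 Bach2-rich and immature or mature B-like) cells, 3 of the 10 genes were at least 2-fold higher in the earlier cells, where 4.94% of 8458 genes with enough UMIs (50 in both groups together) were. Log2 ratios are of CPM with 1 CPM added. These were Vpreb1 (log2 ratio 2.34, 2.21 to 2.46), Vpreb2 (3.91, 3.38 to 4.49) and Igll1 (2.10, 1.96 to 2.23). Igkc was the only one at least 2-fold lower (-4.41, -4.55 to -4.28), against 5.26% of all genes, with 99.6 CPM in earlier and 2144 CPM in later cells.
Rag1 was at 272 CPM in earlier and 143 CPM in later cells, a log2 ratio of 0.92 (0.76 to 1.10) that turned to -1.15 at a minimum of 500 genes, when the small pre-B-like cells entered the later group and the Bach2-rich cells, there closest to the large pre-B list, the earlier one. Cd79b (-0.84) and Ighm (-0.82) were lower in earlier cells by less than 2-fold. Cd79a (0.08), Vpreb3 (-0.16) and Rag2 (-0.36) were near equal, and each of these 3 changed sign under another setting.

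Stage by stage at the lower minimum, the step from resting pro-B-like to Nrgn-rich large pre-B-like cells showed 8 of the 10 genes at least 2-fold lower, where 19.9% of 5030 genes were, and 0 higher, where 11.0% were. Rag1 (-5.15, -5.85 to -4.50) and Rag2 (-3.61, -4.71 to -2.54) differed most on the log2 scale, Ighm (-0.60) and Igkc (0.46) least. Median depth was 4058.5 UMIs in the 146 resting pro-B-like and 18960 UMIs in the 71 Nrgn-rich cells, and its part was not tested. A lower CPM here need not mean fewer UMIs per cell. Summed over these 146 and 71 cells, Vpreb1 had 1881 and 1000 UMIs, Igll1 1067 and 871, and Rag1 341 and 18. Per cell, Vpreb1, Vpreb3, Igll1, Cd79a and Cd79b had more UMIs in the Nrgn-rich cells, and Vpreb2, Rag1 and Rag2 fewer.
From Nrgn-rich to small pre-B-like cells, 6 of the 10 genes were at least 2-fold higher, where 25.2% of 5061 genes were: Rag1 (6.20, 5.53 to 6.96), Rag2 (4.06, 2.88 to 5.56), Igkc (3.40), Cd79b (2.48), Ighm (1.83) and Vpreb3 (1.196). Vpreb1 (-3.48, -3.94 to -3.04), Igll1 (-4.50, -5.23 to -3.85) and Vpreb2 (-5.33, on 1 UMI in small pre-B-like cells) were at least 2-fold lower, where 15.6% of all genes were. The Nrgn-rich cells had a median of 18960 UMIs and the small pre-B-like cells 2328 UMIs in this run, so depth moves with this contrast, and its part in the result was not tested. Per cell, Rag1, Rag2 and Igkc had more UMIs in small pre-B-like cells, and Cd79b, Ighm and Vpreb3 fewer.
From small pre-B-like to immature or mature B-like cells, 4 of the 8 genes with enough UMIs were at least 2-fold lower, where 7.09% of 4243 genes were, and 0 higher, where 5.73% were. Rag1 (-4.04, -4.50 to -3.61) and Rag2 (-4.13, on 3 UMIs in the immature or mature cells) were followed by Vpreb1 (-1.42) and Vpreb3 (-1.03).

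**Figure D3:**
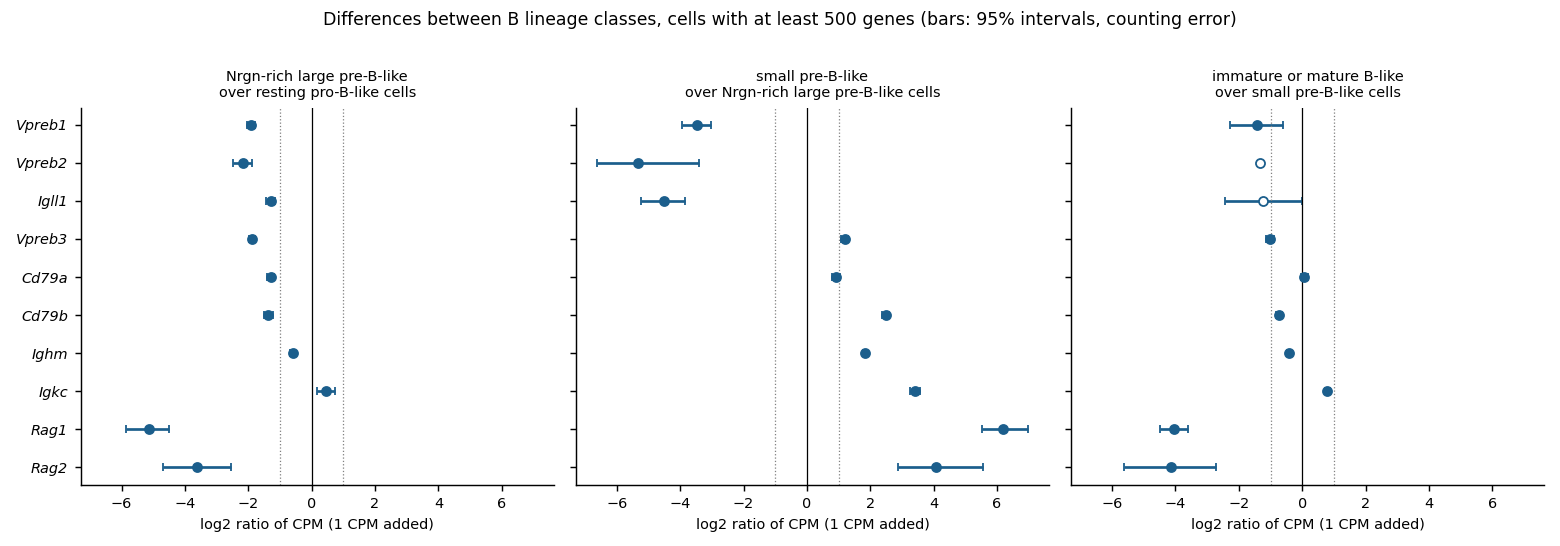
Log2 ratio of CPM (1 CPM added) of the 10 genes for 3 steps between B lineage classes, cells with at least 500 genes. Points are ratios, bars 95% counting intervals, dotted lines 2-fold, and open points genes with fewer than 50 UMIs in both classes together. Rag1 and Rag2 are lower, then higher, then lower again, whereas Vpreb1, Vpreb2 and Igll1 are below 0 in all 3 panels. In the right panel Igll1 (8 and 18 UMIs) and Vpreb2 (0 and 1 UMI) had too few UMIs to be counted.

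Other genes of the same pathways were read from fixed lists. Several list genes also named the classes (among them Dntt, Il7r, Lef1, Sox4, Hmgb2, Bach2, Irf4, Ikzf3 and, for all B lineage-like cells, Pax5, Blnk and Spib), and for those a difference is built in. Of 12 genes of V(D)J recombination and end joining, 5 had enough UMIs between Nrgn-rich and small pre-B-like cells, and 3 were at least 2-fold higher in the latter and 2 lower (median log2 ratio 1.81, against 0.25 over all genes). Of all 5061 genes with enough UMIs in this contrast, 25.2% were higher and 15.6% lower. Median depth was 18960 UMIs in Nrgn-rich and 2328 UMIs in small pre-B-like cells, and its part was not tested. Of the genes given below with a higher CPM in small pre-B-like cells, Lig4, Blnk, Foxo1 and Ighd had fewer UMIs per cell there than in Nrgn-rich cells. Xrcc6 and Syk had slightly more UMIs per cell, and Iglc1 had more. Xrcc6, which encodes the Ku70 end-binding protein, was at 80.0 CPM in Nrgn-rich and 728 CPM in small pre-B-like cells, and Lig4, the ligase that seals the ends, at 17.04 CPM and 73.3 CPM. Both were lower again in immature or mature B-like cells, at 125 CPM and 9.81 CPM. Dntt, which encodes the terminal transferase that adds bases at heavy chain joints, was at 293 CPM in resting pro-B-like cells and had 0 UMIs in small pre-B-like cells. Paxx, another end-joining factor, was the third higher gene, and the 2 lower genes were Hmgb1 and Hmgb2, chromatin proteins that are high in dividing cells.

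Of 15 genes of pre-B and B cell receptor signalling, 4 of 13 tested were higher and 2 lower in small pre-B-like than in Nrgn-rich cells (median 0.94), near the 25.2% and 15.6% of all genes. Syk, the kinase that CD79A and CD79B recruit, was at 84.5 CPM in Nrgn-rich and 695 CPM in small pre-B-like cells, and Blnk, the adaptor below it, at 129 CPM and 840 CPM. Of 18 B lineage transcription factors, 10 of 17 tested were higher and 0 lower (median 1.15), against the same 25.2% and 15.6% of all genes, with Foxo1, an activator of the Rag genes, at 64.4 CPM and 363 CPM. Of 12 genes of interleukin 7 receptor signalling, 4 of 8 tested were higher and 3 lower (median 1.11, against 25.2% and 15.6% of all genes), and Ccnd3, a cyclin of dividing pre-B cells, was among the lower ones with 269 CPM and 128 CPM.
Of 10 other immunoglobulin constant regions, 4 had enough UMIs and all 4 were higher in small pre-B-like cells, where 25.2% of all genes were. Iglc1, a lambda constant region, had 2.96 CPM in Nrgn-rich, 980 CPM in small pre-B-like and 692 CPM in immature or mature B-like cells, and Ighd, that of the delta chain, had 27.4 CPM, 198 CPM and 95.3 CPM. In the step from resting pro-B-like to Nrgn-rich cells, 11.0% of all genes were higher and 19.9% lower. Nrgn-rich cells had 2 higher and 4 lower of 6 tested recombination genes than resting pro-B-like cells (median -1.46, against -0.21 over all genes), 3 and 5 of 13 signalling genes (-0.71), 1 and 6 of 17 transcription factors (-0.77), 1 and 3 of 8 interleukin 7 receptor genes (-0.63), and 0 and 1 of 1 constant region, which was Ighd. In the step from small pre-B-like to immature or mature B-like cells, 5.73% of all genes were higher and 7.09% lower. Immature or mature B-like cells had 1 higher and 2 lower of 6 recombination genes than small pre-B-like cells (median -0.35, against -0.09 over all genes), 2 and 2 of 12 signalling genes (0.14), 0 and 6 of 17 transcription factors (-0.51), 1 and 3 of 7 interleukin 7 receptor genes (-0.90), and 1 and 1 of 4 constant regions (-0.40). Ptpn6, which encodes a phosphatase that dampens receptor signals, was among the higher ones, with 47.3 CPM in small pre-B-like and 259 CPM in immature or mature B-like cells.
Between all earlier and all later cells with at least 1600 genes, 4.94% of all genes were higher in the earlier cells and 5.26% lower. The lists had 1 higher and 1 lower of 11 recombination genes (median -0.14, against -0.04 over all genes), 1 and 3 of 15 signalling genes (-0.37), 3 and 6 of 18 transcription factors (-0.36), 3 and 2 of 11 interleukin 7 receptor genes (0.13), and 1 and 3 of 5 constant regions (-4.13).

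Plasmacytoid dendritic cells are interferon-producing cells of the blood and marrow that share several transcription factors with B cells. The 163 plasmacytoid dendritic cell-like cells (median 10239 UMIs) had 14 of their 15 markers, the list that named them, at 10 CPM or more. Ighm was at 409 CPM (380 to 439) in them, from 762 UMIs, against 71.8 CPM (68.9 to 74.7) in 2246 other leukocytes (median 12908 UMIs), 27.7 CPM (26.6 to 28.8) in cells without Ptprc and 2383 CPM (2349 to 2418) in B lineage-like cells. Ighm was the only gene of 9 tested at least 2-fold higher than in other leukocytes (log2 ratio 2.49, 2.38 to 2.61), where 8.51% of 11569 genes were, and 0 were lower, where 11.9% were.
Igkc, at 33.3 CPM (25.5 to 42.6), was above other leukocytes, at 19.3 CPM (17.9 to 20.9), by a log2 ratio of 0.75 (0.37 to 1.12). The intervals of the ratios of Vpreb1, Vpreb2, Vpreb3, Igll1, Cd79a, Cd79b and Rag1 included 0. Rag2 had 4 UMIs. Of the 2246 other leukocytes, 173 were marked as doublets, among them 87 of the 101 cells led by Retnlg and Mmp8.

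The Ighm UMIs of the plasmacytoid dendritic cell-like class were spread over many cells. Of its 163 cells, 40 had none, 60 had 1 to 4 and 63 had at least 5, with a highest value of 51, and the 17 cells with the most UMIs held 39.5% of them. After thinning to 3000 UMIs, 58.3% (50.3% to 65.9%) of these cells had an Ighm UMI, against 8.99% (7.84% to 10.3%) of other leukocytes and 3.25% (2.78% to 3.78%) of cells without Ptprc.
Ighm stood in another ratio to Cd79a here than in the B lineage. The ratio of Ighm to Cd79a UMIs was 25.4 (17.6 to 37.9) in this class, 3.58 (3.28 to 3.90) in other leukocytes and 1.33 (1.24 to 1.44) to 2.96 (2.83 to 3.103) in the B lineage classes with at least 1600 genes. Small pre-B-like cells at the lower minimum had 4485 Ighm and 1032 Cd79a UMIs. Their ratio lies above that B lineage range and below the interval of the plasmacytoid dendritic cell-like class. Before thinning, 75.5% of the class, 23.6% of other leukocytes and 8.25% of cells without Ptprc had an Ighm UMI. Without the 3 marked doublets the level was 418 CPM (389 to 449).
The variable segments of all immunoglobulin loci together had 0 UMIs in these cells, where 3 UMIs would be 1.61 CPM. Segments were rarely captured in B cells too: earlier B cells had 26 heavy segment UMIs beside 9928 of Ighm. With 762 Ighm UMIs here, the 0 cannot tell whether these transcripts were rearranged. Of the 20 B lineage markers, 13 reached 10 CPM here (1498 CPM summed) and 7 in other leukocytes (431 CPM summed), and none was at 0. In cells without Ptprc, 5 reached 10 CPM, with a higher sum than in other leukocytes (768 CPM). Ly6d is on both the B lineage and the plasmacytoid dendritic cell list, so its part of the difference is built in. The level moved with the clustering, from 237 CPM in 343 cells to 849 CPM in 72 cells.

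**Figure D4:**
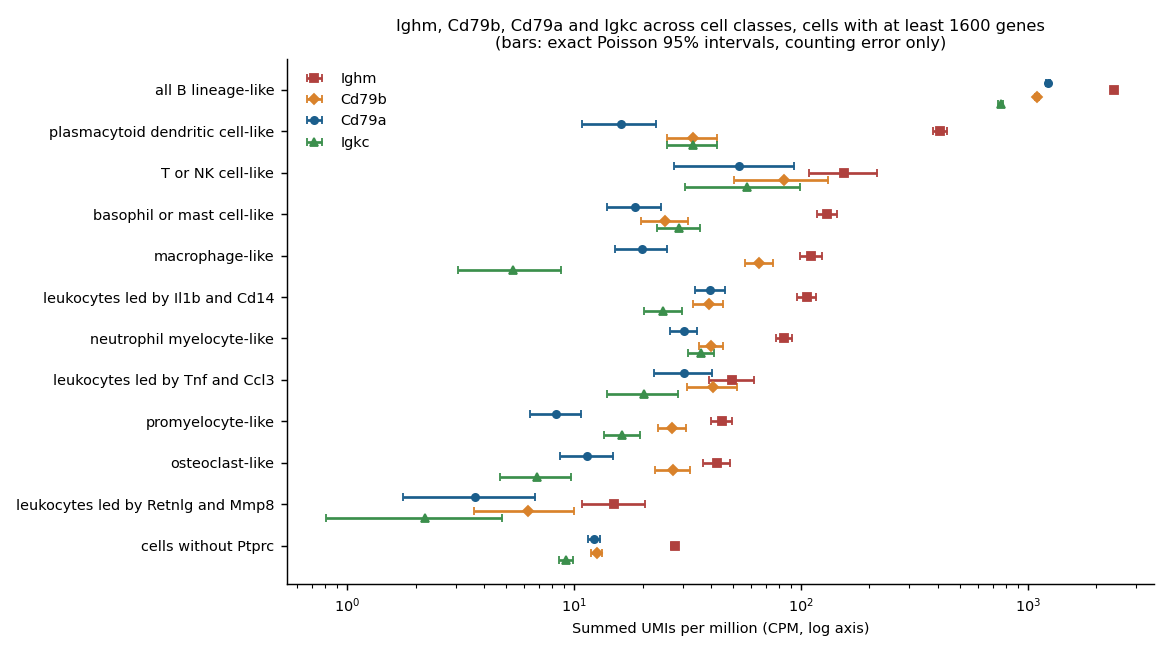
CPM (log axis) of Ighm, Cd79b, Cd79a and Igkc in all B lineage-like cells, 10 other leukocyte classes and cells without Ptprc, with exact Poisson 95% intervals. In the class led by Retnlg and Mmp8, 87 of 101 cells were marked as doublets. Ighm stands apart from the other 3 genes in the plasmacytoid dendritic cell-like class, at 409 CPM, and Cd79b lies above Cd79a in macrophage-like cells, at 65.1 CPM.

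Other genes of the lists were also higher in the plasmacytoid dendritic cell-like class than in other leukocytes, where 8.51% of all genes were higher and 11.9% lower in that class. Of 15 signalling genes, 7 were at least 2-fold higher and 0 lower (median log2 ratio 0.62, against 0.08 over all genes), among them Blnk at 153 CPM against 22.6 CPM and Blk, a Src family kinase, at 16.1 CPM against 1.79 CPM. Of 18 transcription factors, 8 were higher and 2 lower (median 0.18), with Spib at 113 CPM against 3.39 CPM and Irf8 at 339 CPM against 61.7 CPM, whereas Pax5 was at 1.61 CPM. Tcf4, another of the 8, was a marker of the class. Of 12 recombination genes, 1 was higher and 1 lower (median 0.25), near the shares of all genes, and Dntt was at 4.29 CPM. Of 12 interleukin 7 receptor genes, 3 were higher and 0 lower (median 0.12), and of 2 tested constant regions Ighd was higher, at 13.4 CPM against 1.99 CPM, and Iglc1 lower, with 0 UMIs.

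In the other leukocytes the 10 genes were low. Rag2 was at 0.982 CPM (0.676 to 1.38) and Vpreb2 at 2.44 CPM (1.94 to 3.03), whereas Cd79b was at 33.8 CPM (31.8 to 35.8). Cells without Ptprc ranged from 0.645 CPM for Rag2 to 27.7 CPM for Ighm. Of all UMIs in cells with at least 500 genes, B lineage-like cells, mixed ones left out, held between 78.9% (Ighm) and 84.6% (Vpreb1) of each gene.

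Genes with the pattern most like that of 4 members were ranked by Pearson's r of log2(CPM + 1) over the 13 clusters that express Ptprc, as a description over clusters of 1 library that differ in depth. Among the 3 genes most like Cd79a were Pou2af1 (r = 0.98), a coactivator, and Pax5 (0.97), the factor that commits cells to the B lineage. Among the 3 most like Igll1 were Chst3 (0.94) and Dck (0.92). Rag1 was most like Pou2af1 (0.96), Akap12 (0.95) and Prpf3 (0.94), and Igkc most like Zfp296 (0.97), Gm30211 (0.95) and Fcrla (0.95).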

How the data were processed

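Single-cell RNA was measured in 1 library of postnatal day 6 tibia cells. The authors deposited counts of UMIs per gene and barcode, not normalized, made with Cell Ranger 3.1.0 on mm10 with tdTomato and WPRE added. Seurat 3 is named in the submitters' processing notes. The annotation release behind the counts was not found in the sources read here. Positions are from GENCODE M21 and promoters from RefSeq.

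Cells with at least 1600 genes (500 beside it), at most 10% mitochondrial and at most 50% ribosomal protein UMIs were kept. After scaling each cell to 10000 UMIs and taking logs, 2000 variable genes, without the 10 genes and all immunoglobulin genes, gave 30 principal components. Leiden clustering used 20 neighbours at resolution 1, and 0.8 within B lineage-like cells (Python 3.11.15, scanpy 1.11.5, anndata 0.12.19, igraph 0.11.9, numpy 2.4.6, scipy 1.17.1, pandas 2.3.3, scikit-learn 1.9.0, matplotlib 3.10.9, seed 1). Scrublet, at an expected rate of 10%, marked 588 of 14181 barcodes (4.15%), which were kept in the main values.

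A cluster took the marker list with the most genes among its top 10 by fold (10 CPM added), ties by mean z-score, with at least 3 markers at 10 CPM, and with 3 markers among the top 10 or the highest z-score. Leukocyte names needed 50 CPM of Ptprc. B lineage sub-clusters took stage lists with at least 1 marker among the top 10, from genes at no less than 0.5 of their level outside the B lineage, and those with another type's markers at 20% of that type's level were left out as mixed. From 200 CPM of Top2a a sub-cluster was called cycling.

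Levels are CPM with exact Poisson 95% intervals, shares have Clopper-Pearson 95% intervals, and for 0 UMIs the limit is 3. Log2 ratios had 1 CPM added and were counted as 2-fold or more among genes with at least 50 UMIs in both classes together. Scripts were tested on simulated counts. Genes named are the 10, those of 5 fixed lists, the summed variable segments and the 3 genes of highest r for 4 of the 10, among genes with at least 100 UMIs in those clusters. The members and lists were chosen with earlier results of these data known. Alternatives changed the minimum of genes (500, 1000), the mitochondrial limit (5%, 20%), doublets, variable genes, the 10 genes in the clustering, resolutions, the mean over cells, immunoglobulin genes in the total and the CPM added. One gene of the fixed lists is not reported here.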

Additional observations from a re-analysis of the deposited data

Results flagged for a closer look

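Cells with fewer genes than the study's minimum of 1600 are outside the main values, and a signal of 9 of the 10 genes appeared in them. Among them are 252 small pre-B-like cells with at least 500 genes, which hold 576282 UMIs and where 3 UMIs would be 5.21 CPM. In these cells Rag1 was at 1064 CPM (981 to 1151), Rag2 at 90.2 CPM, Igkc at 3064 CPM (2923 to 3211) and Ighm at 7135 CPM (6919 to 7357). Cd79b was at 3285 CPM, Vpreb3 at 2022 CPM and Cd79a at 1590 CPM (1488 to 1696). Vpreb1 and Igll1 were lower, at 55.5 CPM (38.0 to 78.4) and 24.3 CPM (13.3 to 40.8), and Vpreb2 had 1 UMI. In cells without Ptprc at the same minimum, which serve as the background here, the 10 genes were between 0.606 CPM (Rag2) and 27.5 CPM (Ighm), with Vpreb1 at 5.53 CPM and Igll1 at 5.01 CPM, and the intervals of the 9 genes lay above their own background.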

How the results depend on the processing

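No paired analysis was possible because there is 1 library. Of 271 values recomputed under 14 alternatives, 178 moved by less than their counting interval, 78 moved further and 15 turned to the other direction. The number of B lineage-like cells, among these values, has no such interval, and its limit was a factor of 1.5 either way. It ranged from 307 to 1218, against 769 in the main run. Igll1 stayed higher in earlier and Igkc in later B cells under all 14. The log2 ratio of Rag1 turned, from 0.92 to -1.15 at 500 genes and to -0.56 at 1000 genes, where Igll1 was at 5.10 and 2.67 and Igkc at -2.85 and -3.79. At most 5% mitochondrial UMIs gave 1.92 for Igll1 and -5.44 for Igkc, and no plasmacytoid dendritic cell-like class, so no Ighm value. At most 20% gave -3.34 for Igkc and 0.54 for Rag1, and leaving out doublets -3.19 and 1.30. With the 10 genes and immunoglobulin genes allowed in the clustering, Igll1 was at 2.31 and Igkc at -3.33. With 3000 variable genes Igkc was at -2.90 and Rag1 at 1.22. First clustering at resolution 0.6 or 1.5 gave -3.47 for Igkc and 237 or 849 CPM for Ighm in plasmacytoid dendritic cell-like cells. B lineage clustering at resolution 1.2 left the Bach2-rich cells partly unnamed or in the large pre-B list and gave 9.50 for Igll1, -3.19 for Igkc and 7.89 for Rag1, where Igll1 and Rag1 had 0 UMIs in the 39 later cells, so that these 2 values depend on the CPM added. The mean over cells gave 2.68, -4.62, 0.69 and 463 CPM. Vpreb3 turned to 0.11 at 500 genes, 0.16 at 5% mitochondrial UMIs, 0.17 without doublets, 0.23 with 3000 variable genes, 2.95 at B resolution 1.2 and 0.24 with the mean over cells. Cd79a turned to -0.40 at 500 genes, -0.16 at 1000 genes and -0.28 at B resolution 1.2. Rag2 turned to 0.25 at 500 genes, 0.58 without doublets, 0.52 with 3000 variable genes and 5.68 at B resolution 1.2. The settings change which cells enter each group, and no other cause was tested. Depth limits Rag2 and Vpreb2, and in the 39 immature or mature B-like cells a count of 0 allows a level of up to 8.91 CPM.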

Other observations

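In 226 macrophage-like cells (median 11676.5 UMIs) Cd79b was at 65.1 CPM (56.3 to 75.0) and Cd79a at 19.8 CPM (15.1 to 25.5), and after thinning 17.7% (12.96% to 23.3%) of these cells had a Cd79b UMI against 1.77% (0.484% to 4.47%) for Cd79a. In 396 promyelocyte-like cells Cd79b was at 27.0 CPM (23.4 to 31.0) and Cd79a at 8.33 CPM (6.39 to 10.7), and in 188 osteoclast-like cells at 27.2 CPM (22.8 to 32.3) and 11.4 CPM (8.61 to 14.9). In 153 basophil or mast cell-like cells Ighm was at 130 CPM (117 to 144). Before thinning, 41.2% of the macrophage-like cells had a Cd79b UMI and 3.98% a Cd79a UMI. The Cd79a level of the macrophage-like class, and its ratio to Cd79b, therefore rest on few cells. Thus Cd79b exceeded Cd79a in these 3 classes, with a ratio of Cd79a to Cd79b UMIs of 0.304 (0.223 to 0.409) in macrophage-like, 0.308 (0.228 to 0.412) in promyelocyte-like and 0.42 (0.301 to 0.579) in osteoclast-like cells, against 0.973 (0.896 to 1.06) in cells without Ptprc. The excess was not particular to them. Plasmacytoid dendritic cell-like cells had Cd79b at 33.3 CPM and Cd79a at 16.1 CPM. Other leukocytes together, which include the 3 classes, had 33.8 CPM and 20.1 CPM.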
